A study of Mus musculus with 4 samples.

Results

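This account covers 9 direct target genes of the transcription factor p53 in the mouse ovary: Mdm2, Ccng1, Phlda3, Eda2r, Sesn1, Sesn2, Zmat3, Aen and Trp53inp1. They were taken by gene symbol from the 32285 genes counted, each symbol matched 1 row, and all 9 were detected. The study used single-cell RNA sequencing of ovaries from mice treated from postnatal day 25, before puberty, with 1 library per group. The control group received PBS/Saline. The doxorubicin group received doxorubicin at 3 mg/kg, an anthracycline that traps topoisomerase II and breaks DNA, in 2 weekly doses, and the doxorubicin+AMH group received the same with recombinant human anti-Müllerian hormone (AMH) at 0.75 mg/kg. The AMH group received 0.75 mg/kg of the hormone without doxorubicin. Ovaries were taken 4 hours after the second dose, and each library pooled 1 ovary of each of 5 animals, so that animals cannot be compared within a group and no difference below has a replicate check. Each comparison is therefore between libraries.

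p53 is held low in unstressed cells, mainly by Mdm2, the ubiquitin ligase that marks it for degradation, and DNA damage releases it from that control. Stabilised p53 then switches on its own negative regulators together with genes of cell cycle arrest, repair, metabolism and death. In the ovary, doxorubicin is known to damage both oocytes and the somatic cells around them.

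The libraries held 7141 to 9478 deposited cells, 138647495 to 178279122 UMIs (unique molecular identifiers, each a captured transcript counted once) and a median of 9834.5 to 13575 UMIs per cell. Pairs of libraries shared 11 to 24 cell barcodes, 0.281% of the smaller library at most. After filtering, 28230 cells fell into 33 clusters, of which 32 were named from marker genes in 12 classes, written with "-like", and 1 of 1991 cells led by Kcnq5 and Bmpr1b stayed unnamed. In 6 classes every library had at least 50 cells: stroma-like, granulosa-like (the somatic cells of follicles), theca-like (the steroid-making cells around them), mural smooth muscle-like, blood endothelial-like and macrophage-like. The control library had 135 oviduct-type epithelial-like cells and the doxorubicin library had 1, so that class was not compared. No cluster met the markers of oocytes, but 8 cells of 97556 to 210390 UMIs held at least 100 UMIs of the 6 oocyte markers, 7 of them in a stroma-like cluster (1, 2, 0 and 4 in control, doxorubicin, doxorubicin+AMH and AMH) and 1 in a granulosa-like one in control. Summed oocyte markers in stroma-like cells were thus 25.8, 192, 5.03 and 105 CPM in that order, with 6 of 6 markers higher in doxorubicin than in control. Without the 8 cells the counts of pairs called below were the same in each comparison.

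Levels are CPM, UMIs of the gene per 1000000 UMIs summed over the cells of a class in a library, and ratios are log2 of CPM plus 5 in both libraries. Brackets hold 95% Poisson intervals, which cover counting error only. A gene and class pair entered the counts where its mean over the 4 libraries reached 10 CPM, and it was called higher or lower at 1.5-fold (0.58 on the log2 scale). Of the 54 pairs of 9 genes and 6 classes, 42 passed that level. In the doxorubicin library 26 of the 42 were higher than in control and 0 were lower, against 1.46% higher and 2.08% lower among all gene and class pairs. The intervals of both libraries lay apart in 25 of the 26, the exception being Aen in macrophage-like cells. A pair can pass the level through the doxorubicin library alone. With the level read from the control and AMH libraries, 36 pairs passed and 21 were higher.

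The doxorubicin response was widest for Ccng1, higher in 6 of 6 classes (5 without clusters under 20 cells in a library), and absent at this threshold for Sesn1, higher in 0 of 6. Phlda3 and Aen were higher in 4 of the 5 classes that passed and Trp53inp1 in 4 of 6. Eda2r was higher in 3 of 3 and Zmat3 in 2 of 3, while Mdm2 was higher in 2 of 6 and Sesn2 in 1 of 2. These denominators rest in part on the response: with the level read from control and AMH, Eda2r was higher in 1 of 1, Zmat3 in 0 of 1, Phlda3 in 3 of 4 and Aen in 4 of 4, and the other counts were as given. By class, stroma-like cells had 8 of 9 genes higher (all genes, 0.555% higher) and macrophage-like cells 6 of 7 (6.55%). Granulosa-like cells had 4 of 7 (0.239%), theca-like 3 of 6 (0.175%), blood endothelial-like 3 of 6 (1.25%) and mural smooth muscle-like 2 of 7 (0.254%). The median log2 ratio of the members that passed was 1.07 in stroma-like and 1.33 in macrophage-like cells, 0.62 in granulosa-like, 0.54 in both theca-like and blood endothelial-like, and 0.31 for the mural smooth muscle-like class. Over all genes the same median lay between -0.02 and 0.01 in the 6 classes. These class counts and medians rest in part on the response too. With the level read from control and AMH, Phlda3 and Eda2r did not pass in granulosa-like cells, nor Eda2r in blood endothelial-like cells. Zmat3 did not pass in stroma-like and macrophage-like cells. All of these pairs had been called higher with doxorubicin. Aen, not called there, did not pass in mural smooth muscle-like cells, and the theca-like genes stayed the same.

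**Figure D1:**
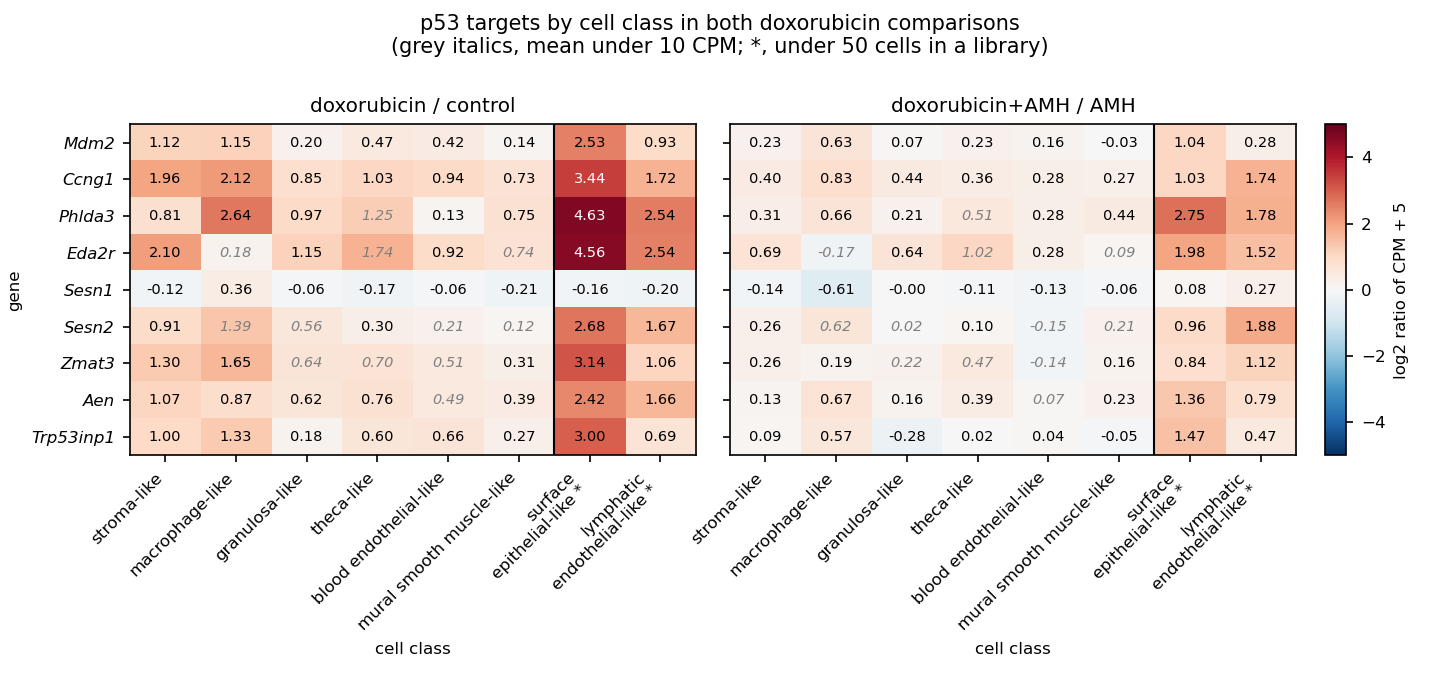
Log2 ratio of CPM plus 5 for each gene (rows) in each cell class (columns), doxorubicin against control on the left and doxorubicin+AMH against AMH on the right; red is higher with doxorubicin. Ccng1 is above 0.58 in all 6 classes on the left and Sesn1 in none, and the values on the right are lower for most genes and classes; classes right of the black line fell under 50 cells in a library and entered no count.

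p53 binds DNA at a pair of adjoining decamers, each known as a half-site, and the short sequences below show which of these promoters carry one next to the start of the gene. Both strands of the 250 bases before each RefSeq start (GRCm38.p6) were searched, and 7 of the 9 genes had an entry. A full site, 2 adjoining half-sites with at most 2 mismatches and none in the fixed C and G of each, was found in 89 of 27025 genes (0.329%) and, among the 7, in Ccng1 alone, where it begins 195 bases before the start and has 1 mismatch (printed stretch on the minus strand, chr11:40755452-40755491). A half-site without mismatch was found in 8.20% of genes and in 4 of the 7. These were Ccng1 (inside its full site) and Mdm2 at chr10:117710925-117710954 (minus strand). The others were Sesn1 at chr10:41887256-41887285 (plus strand) and Aen at chr7:78895927-78895956 (plus strand), each at the downstream of 2 starts. Both of these sites lie past the upstream start of their gene. Capitals mark the site and lower case the 10 bases on each side, and the coordinates given are those of the whole printed stretch, flanks included.
Ccng1: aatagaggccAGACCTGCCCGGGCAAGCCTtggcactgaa
Mdm2: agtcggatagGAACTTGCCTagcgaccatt
Sesn1: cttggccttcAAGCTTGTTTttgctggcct
Aen: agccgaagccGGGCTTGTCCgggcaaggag
The gene with the full site was higher in every class. A half-site stood before a start of Aen, higher in 4 classes, of Mdm2, higher in 2, and of Sesn1, higher in none. Phlda3 and Eda2r had neither in this window and were higher in 4 of 5 and 3 of 3 classes, and Sesn2 had neither and was higher in 1 of 2. A match says only that these letters lie in this window.

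Among the feedback regulators, Mdm2 lies on chromosome 10 (117688875 to 117710758, minus strand, GENCODE M21 on mm10). In stroma-like cells it stood at 34.1 CPM in control (32.2 to 36.1), 79.9 with doxorubicin (76.8 to 83.1), 37.0 with doxorubicin+AMH and 30.8 with AMH, a log2 ratio of 1.12 for doxorubicin over control. That ratio was under the line without the cluster led by Dpt and Clec3b (0.55), which held 204 of the 2221 doxorubicin cells, and also with cells gated on marker UMIs (0.33) or doublets left in (0.26). In macrophage-like cells, the phagocytes of the tissue, it stood at 80.7, 185, 109 and 69.2 CPM in the same order, a ratio of 1.15. The doxorubicin library was the highest of the 4 in both classes. Granulosa-like cells gave 40.3, 46.9, 41.3 and 39.1 CPM and a ratio of 0.20, and the ratio was 0.14 for mural smooth muscle-like cells. Theca-like cells (0.47) and blood endothelial-like cells (0.42) lay between, under the 1.5-fold line.

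Ccng1 encodes cyclin G1, which recruits the phosphatase PP2A to Mdm2, and lies on chromosome 11 (40748552 to 40755311, minus strand). It stood at 13.6 CPM in control (12.4 to 14.9), 67.4 with doxorubicin (64.6 to 70.4), 21.3 with doxorubicin+AMH and 14.9 with AMH in stroma-like cells, a ratio of 1.96. Macrophage-like cells gave 27.8, 138, 60.4 and 31.8 CPM, a ratio of 2.12. Granulosa-like cells gave 14.4 (13.3 to 15.5), 29.9 (28.3 to 31.5), 23.5 and 15.9 CPM, a ratio of 0.85. In each of these classes the order was the same, with doxorubicin highest, doxorubicin+AMH second and the libraries without doxorubicin lowest. The other ratios were 1.03 in theca-like, 0.94 in blood endothelial-like and 0.73 for mural smooth muscle-like cells. Unlike Mdm2, Ccng1 was thus past 1.5-fold in granulosa-like, theca-like, blood endothelial-like and mural smooth muscle-like cells too, although the difference between the genes' ratios has no test here. The mural smooth muscle-like ratio of Ccng1 fell to 0.44, under the line, without clusters that had under 20 cells in a library.

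**Figure D2:**
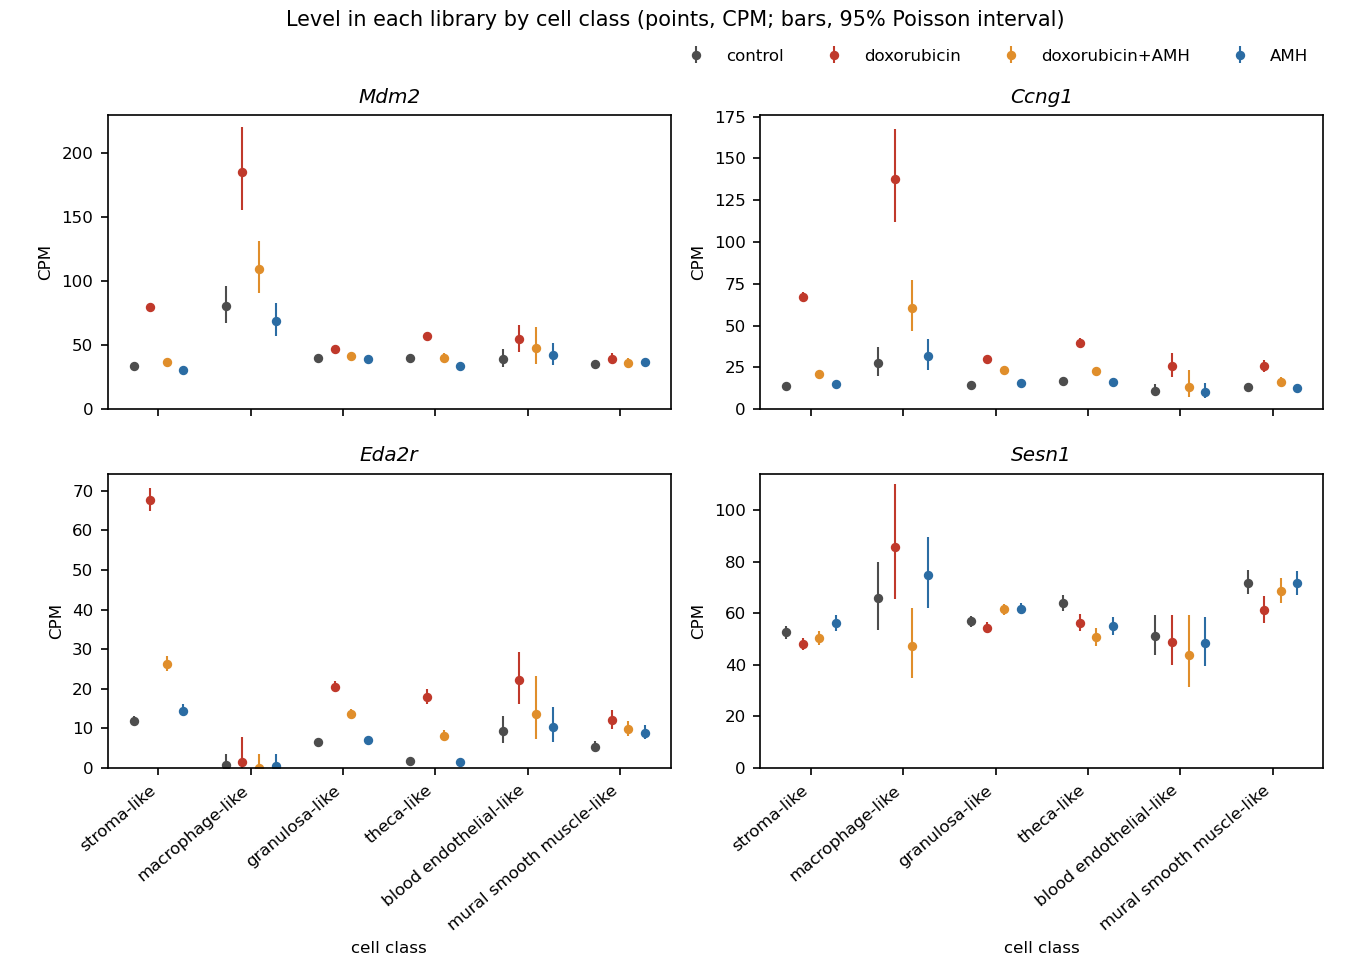
CPM of Mdm2, Ccng1, Eda2r and Sesn1 (vertical axes, starting at 0) in the 6 cell classes, 1 point per library with its 95% Poisson interval. The doxorubicin points of Mdm2 stand apart above the other 3 libraries in stroma-like and macrophage-like cells, those of Ccng1 stand apart above control in all 6 classes (overlapping doxorubicin+AMH in blood endothelial-like cells), Eda2r is near 0 in macrophage-like cells, and Sesn1 has no class in which doxorubicin stands apart above control.

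Phlda3 encodes a small pleckstrin homology protein that competes with Akt for membrane lipids and so restrains Akt signalling (chromosome 1, 135766119 to 135769136, plus strand). Its ratio was greatest in macrophage-like cells, with 8.39 CPM in control (4.47 to 14.4), 78.7 with doxorubicin (59.4 to 102), 26.4 with doxorubicin+AMH and 15.0 with AMH, a ratio of 2.64. In stroma-like cells, where it stood at 47.8, 87.3, 61.4 and 48.4 CPM, the ratio was 0.81. Granulosa-like cells went from 6.38 CPM in control to 17.3 in doxorubicin (0.97) and mural smooth muscle-like cells from 34.2 to 60.8 (0.75). Blood endothelial-like cells had 41.2 CPM in control and 45.6 in doxorubicin, a ratio of 0.13. The class with the second highest control level thus had the lowest ratio of this gene. In macrophage-like cells the summed lymphatic endothelial markers moved too, at 45.2 CPM in control, 111 with doxorubicin, 10.4 with doxorubicin+AMH and 47.4 with AMH (4 of 6 higher in doxorubicin than in control), and their part in the macrophage-like ratios was not tested.

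Eda2r encodes a receptor of the tumour necrosis factor family that binds ectodysplasin A2 (chromosome X, 97333840 to 97377216, minus strand). Stroma-like cells had 12.0 CPM in control, 67.7 with doxorubicin (64.9 to 70.7), 26.4 with doxorubicin+AMH and 14.5 with AMH, a ratio of 2.10. Granulosa-like cells had 6.48 CPM (5.78 to 7.24), 20.5 (19.2 to 21.9), 13.7 (12.7 to 14.8) and 7.05 (6.36 to 7.79), a ratio of 1.15. In both classes each doxorubicin library lay above both libraries without it, with intervals that did not overlap. Blood endothelial-like cells gave a ratio of 0.92. Macrophage-like cells were the exception: Eda2r had 1, 1, 0 and 1 UMIs there in control, doxorubicin, doxorubicin+AMH and AMH, so that no ratio can be given, while Ccng1 and Phlda3 were higher in the same cells.

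Sesn1 and Sesn2 encode sestrins, stress proteins that restrain the growth kinase mTORC1. Sesn1 (chromosome 10, 41809935 to 41908424, plus strand) stood in stroma-like cells at 52.6 CPM in control, 48.1 with doxorubicin (45.7 to 50.6), 50.4 with doxorubicin+AMH and 56.1 with AMH. Its doxorubicin over control ratios ran from -0.21 in mural smooth muscle-like to 0.36 in macrophage-like cells, and none passed 1.5-fold. Sesn2 (chromosome 4, 132492032 to 132510501, minus strand) stood in stroma-like cells at 11.4 CPM (10.4 to 12.6), 26.0 (24.2 to 27.8), 11.5 and 8.81, a ratio of 0.91. The paralogues thus differed in this class, Sesn2 being highest in the doxorubicin library and Sesn1 lowest there. The other class in which Sesn2 passed the level was theca-like, with a ratio of 0.30. Sesn2 overlaps Gm12981 on the same strand in the annotation, and the split of reads between them is not given in the sources used here.

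Zmat3 encodes a zinc finger protein that binds RNA and alters splicing and transcript decay (chromosome 3, 32334792 to 32366014, minus strand). It stood in stroma-like cells at 9.19 CPM in control, 29.9 with doxorubicin, 13.6 with doxorubicin+AMH and 10.5 with AMH, a ratio of 1.30. Macrophage-like cells had a ratio of 1.65, from 12 UMIs in control and 25 in doxorubicin, and mural smooth muscle-like cells one of 0.31. Aen encodes an exonuclease that promotes apoptotic DNA breakdown (chromosome 7, 78895854 to 78911209, plus strand). In stroma-like cells it stood at 11.5, 29.7, 16.4 and 14.6 CPM in the same order, a ratio of 1.07. Both genes were highest in the doxorubicin library. The further Aen ratios were 0.87 in macrophage-like cells (18 UMIs in each library), 0.76 in theca-like and 0.62 in granulosa-like cells, with 0.39 for mural smooth muscle-like cells.

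Trp53inp1 encodes a nuclear protein that binds p53 under stress and also acts in autophagy (chromosome 4, 11156431 to 11174379, plus strand). Stroma-like cells had 34.6 CPM in control, 74.0 with doxorubicin, 31.4 with doxorubicin+AMH and 29.1 with AMH, a ratio of 1.00. The ratios were 1.33 in macrophage-like, 0.66 in blood endothelial-like and 0.60 in theca-like cells, with 0.27 for mural smooth muscle-like and 0.18 for granulosa-like cells. Granulosa-like cells departed from the pattern of the other classes: they had 35.6 CPM in control (34.0 to 37.4), 41.2 with doxorubicin (39.3 to 43.1), 42.3 with doxorubicin+AMH (40.6 to 44.2) and 52.5 with AMH (50.6 to 54.5). The highest library was thus AMH without doxorubicin, at a log2 ratio of 0.50 over control, short of the 1.5-fold line.

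Within the stroma-like class the clusters differed widely. The cluster led by Dpt and Clec3b, matrix and adventitial fibroblast genes, had 296 cells in control, 204 with doxorubicin, 135 with doxorubicin+AMH and 264 with AMH. There Mdm2 stood at 37.9 CPM in control, 327 with doxorubicin (308 to 347), 31.1 with doxorubicin+AMH and 32.0 with AMH. Ccng1 stood at 23.0, 292 and 16.5 CPM in the first 3 libraries and had 60 UMIs with AMH (15.3 to 25.7 CPM). Eda2r stood at 21.6, 279, 35.1 and 20.7 CPM. In each case the doxorubicin library was far above the other 3. The log2 ratios over control were 3.42 for Eda2r, 3.41 for Ccng1, 3.28 for Sesn2, 3.18 for Trp53inp1, 2.95 for Mdm2, 2.82 for Aen, 2.66 for Zmat3 and 1.88 for Phlda3. Sesn1 went the other way, with 49.3 CPM in control, 33.1 with doxorubicin, 52.9 with doxorubicin+AMH and 50.3 with AMH, a ratio of -0.51.

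In the same cluster the doxorubicin+AMH library lay close to the libraries without doxorubicin. Its ratios over AMH ran from -0.21 for Ccng1 to 0.64 for Eda2r, and the intervals overlapped for Mdm2, Ccng1, Sesn1, Sesn2, Zmat3, Aen and Trp53inp1. Phlda3 was apart, at 80.1 CPM (66.4 to 95.7) against 50.7 (42.9 to 59.4), and Eda2r overlapped by a narrow margin, at 35.1 (26.3 to 45.9) against 20.7 (15.8 to 26.5). The median depth of these cells was 11801 UMIs in control, 15195 with doxorubicin, 10751 with doxorubicin+AMH and 10736 with AMH. Summed markers of macrophages were 24.5 to 46.0 CPM and those of surface epithelium 4.63 to 10.0 CPM in the 4 libraries, lowest in the doxorubicin library for both lists. The summed stroma markers were 27329, 23292, 17928 and 23043 CPM.

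**Figure D3:**
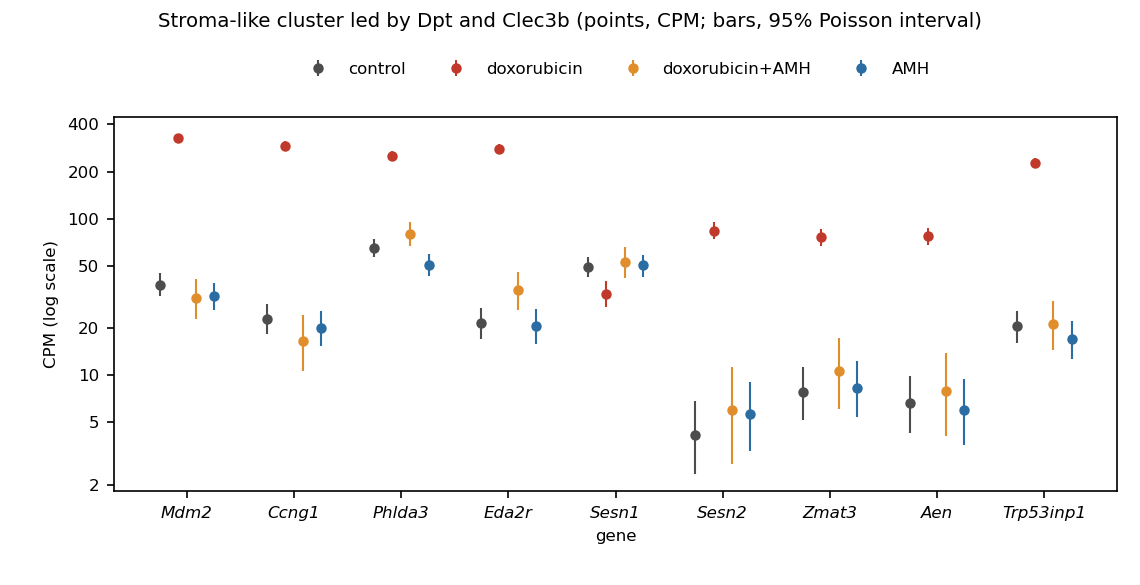
CPM (log axis) of the 9 genes in the stroma-like cluster led by Dpt and Clec3b, 1 point per library with its 95% Poisson interval. For every gene but Sesn1 the doxorubicin point stands above the other 3 libraries, as for Mdm2 at 327 CPM against 31.1 to 37.9; for Phlda3 doxorubicin+AMH also stands apart above AMH.

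Of the 6 stroma-like clusters, 2 others are described. The cycling cluster led by Enpep, Hmmr and Top2a had doxorubicin over control ratios of 2.55 for Ccng1, 2.30 for Eda2r, 2.24 for Trp53inp1 and 1.28 for Mdm2. In the cluster led by Frem1 and Kcnk2 the ratios of the same genes were 0.03, 0.55, -0.27 and -0.20. In doxorubicin+AMH against AMH the cycling Enpep cluster gave 0.78 for Ccng1 and 1.34 for Eda2r, above the values of the Dpt and Clec3b cluster. This cycling cluster held the 7 oocyte-marker cells, and without them its doxorubicin over control ratios were 2.65 for Ccng1, 2.34 for Eda2r, 2.28 for Trp53inp1 and 1.18 for Mdm2. Aen depended on those cells: without them its ratio went from 1.21 to 1.83 for doxorubicin over control and from -0.27 to 0.60 for doxorubicin+AMH over AMH, as its level went from 23.1 to 13.8 CPM in control and from 42.2 to 20.8 in AMH. Without the Dpt and Clec3b cluster 4 stroma-like ratios fell under the line, Mdm2 to 0.55, Phlda3 to 0.53, Sesn2 to 0.49 and Trp53inp1 to 0.58, and 22 pairs in place of 26 were higher. When cells were instead gated on marker UMIs, which sets adventitial cells apart, stroma-like Mdm2 had a ratio of 0.33 and Ccng1 1.06.

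**Figure D4:**
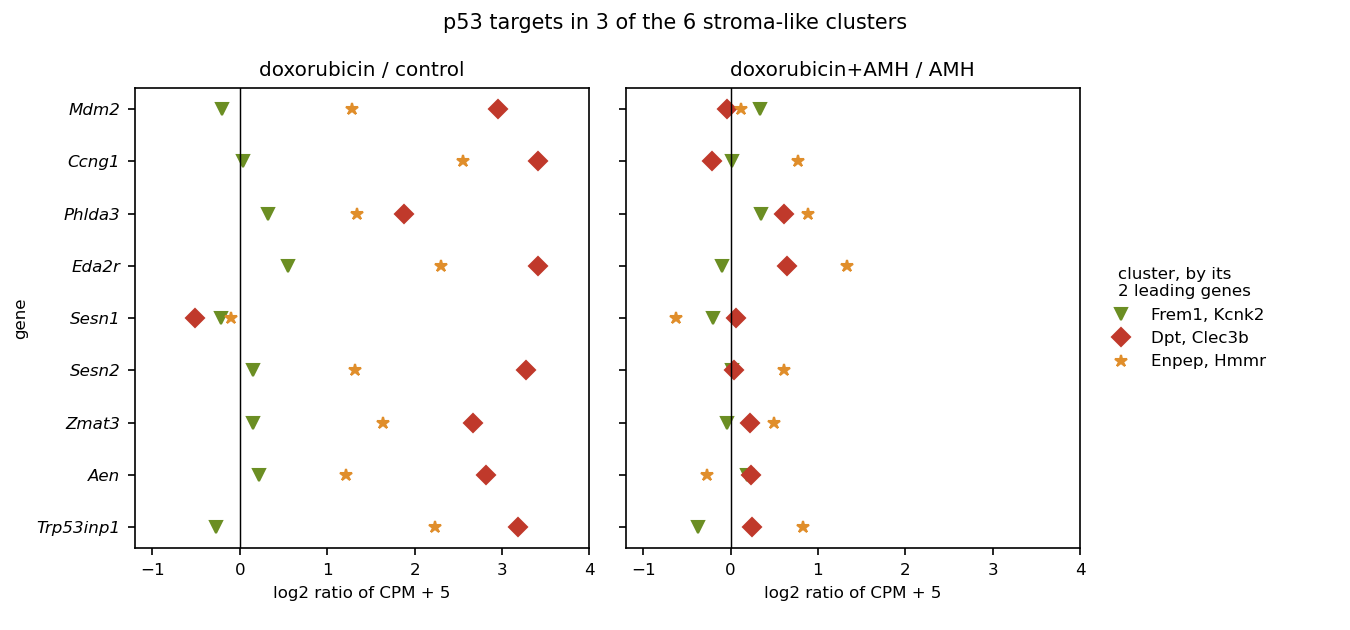
Log2 ratio of CPM plus 5 (horizontal axes) for each gene in 3 of the 6 stroma-like clusters, doxorubicin against control on the left and doxorubicin+AMH against AMH on the right, each cluster named by its 2 leading genes. Among these 3, on the left the Dpt, Clec3b cluster is farthest right for 8 genes and farthest left for Sesn1; on the right its points lie between -0.21 and 0.64.

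Counted per cell, the share of cells in which several targets were seen together differed between clusters and classes. After each cell was thinned to 2000 UMIs, 42.1% of 202 doxorubicin cells of the Dpt and Clec3b cluster had UMIs of at least 3 of the 9 genes (exact binomial interval 35.2 to 49.2). In control this was 0.678% of 295 cells, in doxorubicin+AMH 0.746% of 134 and in AMH 0.763% of 262. Thinning left out 1 or 2 cells per library, and unthinned the shares were 91.2%, 33.4%, 37.8% and 24.6% in the order doxorubicin, control, doxorubicin+AMH and AMH. Erythroid-like cells, which give a measure of free RNA, had 1.85% of 54 thinned cells in doxorubicin (median depth 6553 UMIs) and 0 of 47, 59 and 31 in the others, where a count of 0, read as up to 3 cells, allows up to 6.38% in control, 5.08% in doxorubicin+AMH and 9.68% in AMH. In that cluster Ccng1 was seen in 38.1% of thinned doxorubicin cells and 4.75% of control cells. Sesn1 ran the other way, with 2.97% and 9.15%. Over all stroma-like cells the share with at least 3 genes was 6.52% in doxorubicin and 1.06%, 0.825% and 0.988% in control, doxorubicin+AMH and AMH. It was 4.06% in theca-like and 1.70% in granulosa-like doxorubicin cells. The cycling Enpep cluster had 12.9% of 147 doxorubicin cells (7.96 to 19.4). A mural smooth muscle-like cluster led by Des and Cnn1 had 15.8% of 19 (3.38 to 39.6). Blood endothelial-like cells had 0 of 110 in doxorubicin, which allows up to 2.73%, and the unnamed cluster had 0.682% of 440 in doxorubicin against 1.42% of 562 in control. The interval of the erythroid-like share reached 9.89%, above the stroma-like, theca-like and granulosa-like shares and under the interval of the Dpt and Clec3b cluster.

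**Figure D5:**
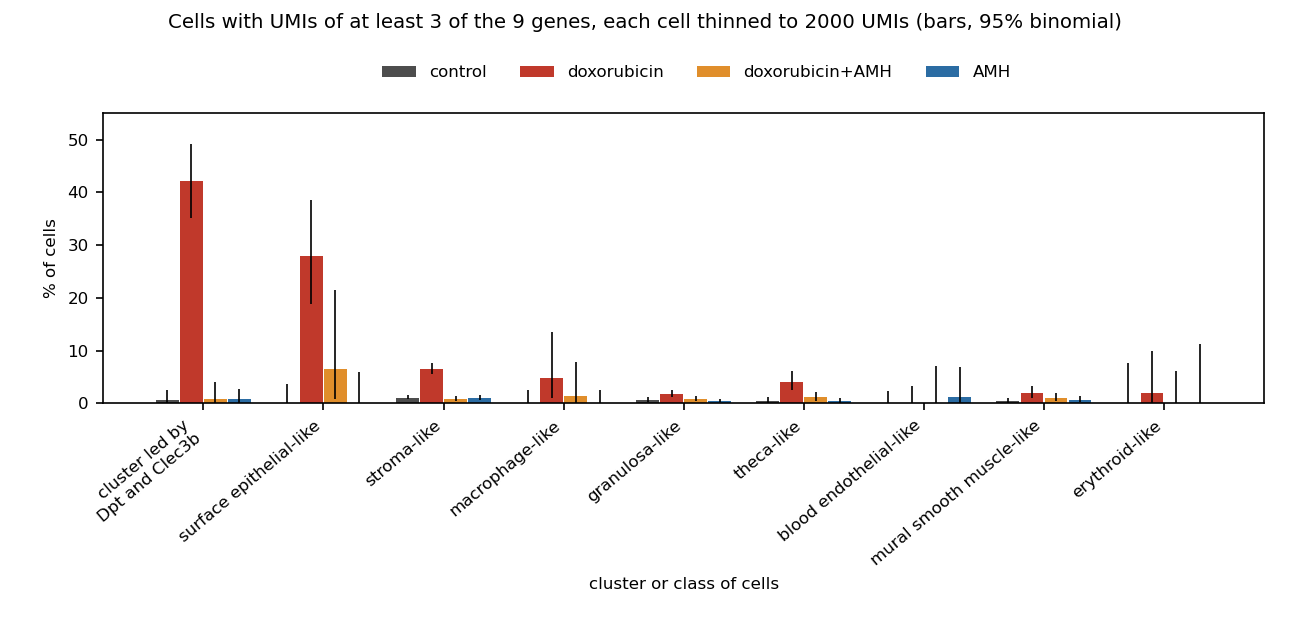
Share of cells (bars, in percent, from 0) with UMIs of at least 3 of the 9 genes after thinning to 2000 UMIs per cell, by cluster or class and library; lines are exact 95% binomial intervals. The doxorubicin bar reaches 42.1% in the cluster led by Dpt and Clec3b and 27.9% in surface epithelial-like cells and stays under 7% in the other classes drawn.

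Surface epithelial-like cells, which coat the ovary, had 101, 91, 33 and 63 cells in control, doxorubicin, doxorubicin+AMH and AMH and so stayed outside the counts. Ccng1 stood there at 27.1 CPM in control, 344 with doxorubicin, 103 with doxorubicin+AMH and 47.7 with AMH, a ratio of 3.44 for doxorubicin over control. Phlda3 stood at 3.08, 195, 83.5 and 8.17 CPM (4.63) and Eda2r at 4.62, 222, 36.9 and 5.65 CPM (4.56). For these genes the doxorubicin+AMH level lay between the doxorubicin library and the libraries without it. The other ratios were 2.53 for Mdm2, 2.68 for Sesn2, 3.14 for Zmat3, 2.42 for Aen, 3.00 for Trp53inp1 and -0.16 for Sesn1. Cells with at least 3 of the genes made up 27.9% of 86 thinned doxorubicin cells, 6.45% of 31 in doxorubicin+AMH, and 0 of 97 in control and 0 of 60 in AMH, where by the same rule a count of 0 allows up to 3.09% and 5.0%. Unthinned, the shares were 89.0%, 63.6%, 49.5% and 49.2% in that order, and thinning left out 5, 2, 4 and 3 cells.

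The class joined 2 clusters, and the one led by C3 and Slpi had 0 cells in the doxorubicin+AMH library. In the other, led by Lgals7 and Upk3b with 65, 52, 33 and 30 cells, Ccng1 had a ratio of 3.80 for doxorubicin over control and 1.19 for doxorubicin+AMH over AMH. Mdm2 gave 2.77 and 1.01 there. Both responses were thus present within 1 cluster. Summed surface epithelial markers in the class ranged from 3933 to 5570 CPM, and stroma markers were 2285, 2967, 965 and 4935 CPM. Their part in these values was not tested.

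Lymphatic endothelial-like cells, with 78, 39, 45 and 58 cells, differed from blood endothelial-like cells in the size of the response. Phlda3 stood at 9.56, 79.8, 59.5 and 13.8 CPM in the lymphatic cells, a ratio of 2.54, against 0.13 in the blood vessel cells. Eda2r gave 2.54 against 0.92 and Ccng1 1.72 against 0.94. In doxorubicin+AMH over AMH the lymphatic values were 1.78 for Phlda3, 1.52 for Eda2r and 1.74 for Ccng1, and those of blood endothelial-like cells were 0.28 for each of the 3. The lymphatic sums rest on 8 to 53 UMIs per gene and library. Summed macrophage markers in these cells were 24.1, 74.9, 52.7 and 35.7 CPM, with 4 of 7 higher in doxorubicin than in control. Stroma markers were 813, 953, 701 and 818 CPM, with 7 of 8 higher. Their part in these ratios was not tested. The median depth was 15674, 7679, 7605 and 6980 UMIs.

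In mural smooth muscle-like cells 1 cluster decided the calls. The cluster led by Des and Cnn1 had 196, 19, 54 and 183 cells, and its ratios were 3.40 for Ccng1 and 3.43 for Phlda3. Without the clusters under 20 cells in a library, which include it, the class had ratios of 0.44 for Ccng1 and 0.45 for Phlda3, both under the line. The pericyte-type cluster led by Rgs5 gave 1.93 for Ccng1, and the main contractile cluster led by Myh11 gave 0.19. Summed erythroid markers in the class were 19.0 CPM in control, 153 with doxorubicin, 37.0 with doxorubicin+AMH and 141 with AMH, with 5 of 5 higher in doxorubicin than in control, and stroma markers went from 4122 to 4555 CPM, with 8 of 8 higher. In the Des and Cnn1 cluster the erythroid sums were 15.2 CPM in control and 24.2 with doxorubicin. Their part in these ratios was not tested.

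Theca-like cells sat in different clusters in libraries with and without AMH. The cluster led by Lhcgr and Prss35 had 546 cells in doxorubicin+AMH and 710 in AMH but 34 in control and 20 in doxorubicin, and that led by Cyp17a1 and Cyp11a1 had 60 and 56 against 686 and 447. The cluster led by Cyp17a1 and Enpep had 123 to 132 cells in each library and allows both doxorubicin comparisons within 1 set of cells. There Ccng1 had ratios of 1.45 for doxorubicin over control and 1.20 for doxorubicin+AMH over AMH, and Eda2r 1.74 and 1.77. In the Lhcgr and Prss35 cluster the ratios of doxorubicin+AMH over AMH were -0.06 and 0.45.

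Granulosa-like clusters were more alike in doxorubicin over control. Among the 4 with at least 162 cells in every library, led by Nr5a2, by Inhba, by Inhbb and by Cntn4, the ratio of doxorubicin over control ran from 0.92 to 1.54 for Eda2r and from 0.41 to 1.06 for Ccng1. Mdm2 stayed between 0.10 and 0.31 in these clusters. In the cluster led by Cntn4, Phlda3 stood at 8.45 CPM in control, 20.5 with doxorubicin, 31.4 with doxorubicin+AMH and 25.3 with AMH. Its ratio of AMH over control was 1.17 there. A cluster of 179 low-depth cells led by B230209E15Rik and Cntn4 had 178 in the doxorubicin library, and another of 83 led by Amh and Wfdc10 had 79 there. The first also met the markers of mural smooth muscle and theca, and summed mural markers in granulosa-like cells were 50.5 CPM in control, 115 with doxorubicin, 46.9 with doxorubicin+AMH and 62.6 with AMH, with 7 of 8 higher in doxorubicin than in control. Without clusters under 20 cells in a library, which include both, the granulosa-like ratios of doxorubicin over control were 0.91 for Phlda3 and 0.64 for Aen. At a Leiden resolution of 0.5, where the 179 cells were named mural smooth muscle-like, they were 0.73 and 0.47, the second under the line.

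With AMH in both libraries, fewer of the targets passed the line. In doxorubicin+AMH over AMH 6 of the 42 pairs were higher and 1 was lower, against 1.83% and 2.8% of all pairs. This comparison shares no library with doxorubicin over control. Those higher were Eda2r in stroma-like (0.69) and granulosa-like cells (0.64), and Ccng1 (0.83), Aen (0.67), Phlda3 (0.66) and Mdm2 (0.63) in macrophage-like cells. With the level read from control and AMH, granulosa-like Eda2r did not pass, while the other pairs called in this comparison did. The intervals of Phlda3 and Aen in macrophage-like cells overlapped between the libraries. The lower pair was Sesn1 in macrophage-like cells (-0.61), with 47.2 CPM (35.0 to 62.2) against 74.8 (62.0 to 89.4), which overlapped by a narrow margin. In macrophage-like cells 4.38% of all genes were higher and 9.13% lower in this comparison. In stroma-like cells 0.109% were higher and in granulosa-like cells 0.0909%.

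Set directly against the doxorubicin library, doxorubicin+AMH was lower for 16 of the 42 pairs and higher for 0, against 4.94% and 3.17% of all pairs. With the level read from control and AMH, 14 of 36 were lower. The comparison shares its libraries with both above. Stroma-like cells held 7 of the 16 (all genes, 1.1% lower), every gene but Phlda3 (-0.48) and Sesn1 (0.06), with Ccng1 at -1.46, Eda2r at -1.21, Trp53inp1 at -1.12 and Mdm2 at -1.02. Macrophage-like cells held 5 (12.5%), among them Phlda3 (-1.41), Zmat3 (-1.30) and Ccng1 (-1.13). Theca-like cells held 3 (7.41%), which were Aen, Ccng1 and Trp53inp1 (-0.72 to -0.66), in the class whose clusters differ between these libraries. Blood endothelial-like cells held 1 (5.19%), which was Ccng1 (-0.73), with intervals that overlapped. Neither granulosa-like nor mural smooth muscle-like cells held any, and the granulosa-like ratios ran from -0.51 for Phlda3 to 0.17 for Sesn1. Without the Dpt and Clec3b cluster 13 pairs were lower.

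AMH against control gave 0 higher and 0 lower of the 42 pairs, against 2.76% and 3.62% of all pairs. The median of the members that passed lay between -0.14 in theca-like and 0.17 in macrophage-like cells. The widest gaps were Phlda3 in macrophage-like cells (0.57, from 13 UMIs in control and 24 in AMH) and Trp53inp1 in granulosa-like cells (0.50).

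Other lists of the p53 pathway were counted over the same 6 classes. Of arrest and repair targets, 12 of 75 gene and class pairs were higher with doxorubicin over control and 1 was lower; of death targets 6 of 30 and 0; and of p53 with its regulators 2 of 57 and 2. Among all gene and class pairs 1.46% were higher and 2.08% lower, and the count of p53 with its regulators lay near those shares. In stroma-like cells the median ratios of these lists were 0.19, 0.59 and 0.01 among the 14, 4 and 9 genes that passed, beside -0.01 over all genes. Cdkn1a, the p21 inhibitor of cell cycle kinases, stood in stroma-like cells at 38.4 CPM in control, 277 with doxorubicin, 80.3 with doxorubicin+AMH and 50.8 with AMH, a ratio of 2.70. It gave 2.24 in theca-like, 1.62 in macrophage-like, 1.53 in granulosa-like and 0.56 in blood endothelial-like cells. The mural smooth muscle-like value was 1.26. In the Dpt and Clec3b cluster it stood at 136, 1609, 287 and 160 CPM. Cdkn1a was thus highest there in the doxorubicin library.

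Polk, a lesion-bypass DNA polymerase, and Ei24, an endoplasmic reticulum protein linked to cell death, had ratios of 1.67 and 1.59 in macrophage-like cells. Ckap2, a microtubule protein, had 1.43 in stroma-like cells. Bax, the pore-forming death effector, had 0.90 in macrophage-like and 0.74 in stroma-like cells and 0.35 to 0.55 in the other 4 classes. In the Dpt and Clec3b cluster Bax stood at 51.3, 248, 58.2 and 51.0 CPM. Trp53, which encodes p53, did not pass the line in any of the 6 classes, with ratios from -0.18 in theca-like to 0.26 in macrophage-like cells.

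Across 24 points (6 classes by 4 libraries, each centred on its class mean), every member but Sesn1 had a Pearson r of 0.71 to 0.99 with the mean of the other 8, with Ccng1 at 0.99 and Eda2r at 0.71. Sesn1 had an r of -0.05. These points share libraries and depth, so r is a description. The 4 members above the level in every class, Mdm2, Ccng1, Sesn1 and Trp53inp1, gave a mean profile. All 6455 genes above the level in every class were ranked by their r with it. Members and genes of the pathway lists were then set aside, so where they ranked is not given. The closest of the rest were Exoc4, a subunit of the exocyst that tethers secretory vesicles (0.94), and Scand1, a SCAN domain protein (0.88). Next came the long non-coding RNA Snhg15 (0.87), Rps27l, a ribosomal protein paralogue (0.86), and Msrb1, a methionine sulfoxide reductase (0.82). Exoc4 stood at 170 CPM in control, 355 with doxorubicin, 182 with doxorubicin+AMH and 143 with AMH in stroma-like cells, ratios of 1.04 over control and 0.34 for doxorubicin+AMH over AMH. Rps27l stood at 319, 492, 406 and 365 CPM. Both had their highest stroma-like level in the doxorubicin library.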

How the data were processed

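Single-cell libraries were made with a 10x Genomics 3′ kit, and the deposited matrices hold raw UMI counts per gene and cell from Cell Ranger 7.0.0, per the file headers. The submitters' processing notes name mm10, R 4.2.0 and Seurat 4.1.0. The annotation and whether introns were counted are not given in the sources used here. Gene positions were read from GENCODE M21 (mm10) by gene ID and promoters from RefSeq (GRCm38.p6). No member shared at least 95% identity over 200 bases with another gene (BLAST 2.17.0).

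Cells under 1000 UMIs or over 20% mitochondrial UMIs were left out. Scrublet in scanpy 1.11.5 scored doublets, and the highest scores were removed at 0.8% per 1000 deposited cells (its automatic threshold would have marked 1 cell in doxorubicin and 0 in the others). The 4 libraries were clustered together without batch correction on 2000 variable genes, leaving out the members, the pathway lists and mitochondrial genes, with 30 principal components (scikit-learn 1.9.0), 20 neighbours (edges under an overlap of 0.0667 dropped) and Leiden at resolution 1.0 (leidenalg 0.10.2, igraph 0.11.9). A cluster was named when at least 3 markers and 60% of a list lay 1 log2 unit above the median cluster in at least 10% of its cells. A low-depth cluster (under 33.3% of its library median) with no such marker among its top 10 genes stayed unnamed.

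UMIs were summed per class and library. With 1 library per group no test is possible, and none was run. Intervals are 95%, exact Poisson for sums and exact Clopper-Pearson for shares of cells, and a count of 0 allows up to 3 counts. They cover counting error only. The calculation was tested on simulated data with planted changes larger than 1.5-fold and counting error only. That simulation does not bear on calls near the line or on variation between libraries. All 9 members are named. From 3 lists of other pathway genes (18, 11 and 12 genes, with Ptprv not in the feature table), the 4 genes with the highest doxorubicin over control ratio are named, and Trp53, Cdkn1a and Bax always. The members and lists were chosen with earlier results of these data known.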

Additional observations from a re-analysis of the deposited data

How the results depend on the processing

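With 1 library per group, no difference here can be told from a difference between dissections, dissociations or pools of animals. No ratio of the 216 (9 genes, 6 classes, 4 comparisons) changed sign while past 1.5-fold under any alternative run. Of the 216 ratios, 61 were past 1.5-fold, counted without the 10 CPM level, so some belong to pairs that entered no count above. All 61 stayed so with a mitochondrial limit of 10%, 59 under median-of-ratios scaling and 53 at a Leiden resolution of 0.5. There were 49 with every cell weighted equally, 41 under a gate on marker UMIs per cell and 40 with doublets left in. A pseudocount of 1 CPM can only widen a ratio, so all 61 stayed past the line by construction. With doublets left in, a cluster led by Clec3b was named adventitial fibroblast-like and a cycling one led by Hmmr and Mki67 mural smooth muscle-like, and the stroma-like ratio of doxorubicin over control was then 0.26 for Mdm2 and 0.91 for Ccng1. Median-of-ratios scaling moved the median over all genes by 0.07 log2 units at most.

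For doxorubicin over control, 26 pairs were higher; 14 of 27 were with a level of 20 CPM, where fewer pairs pass, and 12 at a 2-fold threshold. For doxorubicin+AMH over doxorubicin, 16 were lower, 10 with a level of 20 CPM and 7 at 2-fold, and 1 was higher with cells weighted equally. For doxorubicin+AMH over AMH, 6 were higher, 3 at a resolution of 0.5 and 0 at 2-fold, and the 1 lower pair became 0 under median-of-ratios scaling, with doublets left in, under the marker gate, at a resolution of 0.5 and at 2-fold. For AMH over control, 1 pair was higher with a pseudocount of 1 CPM, with a mitochondrial limit of 10% and at a resolution of 0.5, and 2 were higher and 2 lower with cells weighted equally. Beyond the stated constructions the cause was not tested. Without the level filter 32 of 54 pairs were higher with doxorubicin over control. A filter on control and AMH alone, leaving out the Dpt and Clec3b cluster, leaving out clusters under 20 cells in a library and leaving out cells rich in oocyte markers were chosen after seeing the data, and for doxorubicin over control gave 21, 22, 24 and 26 higher pairs. No paired analysis was possible because each group has 1 library and the labels give no replicate numbers.

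Depth limits the smaller classes: in macrophage-like cells Aen had 18 UMIs in each of control and doxorubicin.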
